A study of Mus musculus with 27 samples.

Results

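CBA/J lung was compared 24 hours after irradiation of the whole thorax with X-rays at 12.5 Gy and after sham irradiation at 0 Gy. Both groups held 3 arrays, so 6 of the 27 arrays of the series belonged to the comparison, and they were chosen by the strain and dose of their labels alone. All mice were females of 10 to 12 weeks from the Jackson Laboratory, each array carried RNA of 1 mouse, and the RNA integrity numbers were above 9.0. The lobe taken was the right upper one. Head, abdomen and forelimbs were shielded. The arrays of C57L/J and C57BL/6J at the same doses, and the 3 CBA/J arrays at 15 Gy, serve only for comparison. The strain field of the CBA/J arrays also holds a code, C3 for replicate 1, C2 for replicate 2 and C1 for replicate 3, which is not explained. CBA/J is an inbred strain, and the labels class its later lung disease as pneumonitis without fibrosis. The deposited intensities were taken to log2, and 1 probe set stood for each of 18194 genes, so that a log2 change of 1 is a doubling of intensity. A level on this scale cannot be set against the level of another gene, since probe sets differ in brightness. In a whole lobe, fewer cells of a type and less RNA per cell cannot be told apart.

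Ionizing radiation breaks DNA, and the damage kinases ATM and CHK2 then stabilize the transcription factor p53. p53 switches on genes that stop the cell cycle, repair DNA or start cell death, and p21, the product of its target Cdkn1a, silences genes of division through the DREAM complex. Lymphocytes are among the cells that die most readily after irradiation, whereas the epithelial and connective cells of the lung mostly survive the first day. The lung holds resident B, T and NK cells, dendritic cells and monocytes beside alveolar macrophages, and part of them lie in its blood vessels.

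The labelled tissue was checked against its markers first. Sftpc, the surfactant protein of type II alveolar cells, lay between 14.45 and 14.80 on the log2 scale on the 6 arrays, and Scgb1a1 of club cells between 14.88 and 15.15. The transcripts of other tissues were uneven between arrays. The mean over 10 skeletal muscle genes was 9.73, 10.79 and 6.99 at 0 Gy and 6.70, 12.22 and 14.75 at 12.5 Gy. Muscle transcripts were thus high on 0 Gy replicates 1 and 2 and on 12.5 Gy replicates 2 and 3, so that each dose held 1 array nearly free of them. Thyroglobulin (Tg) reached 15.07 and parathyroid hormone (Pth) 14.48 on 12.5 Gy replicate 3, against at most 5.59 and 4.50 on the other 5. Glycam1, made by the high endothelial venules of lymph nodes, was 10.52 on 0 Gy replicate 3 and at most 2.85 elsewhere. That sham array, the 1 nearly free of muscle transcripts, also had a mean of 13.28 over 2 fat genes, against 9.70 on 12.5 Gy replicate 1. Comparisons between the arrays nearly free of muscle transcripts thus set 1 array against 1 and are not free of other tissues. The squamous keratin Krt4 was 12.69, 14.002 and 5.46 at 0 Gy and 5.95, 14.08 and 9.32 at 12.5 Gy. On 12.5 Gy replicate 3 the mean over 14 lung markers was 11.79, against 12.53 to 12.77 on the others, a difference to which the macrophage gene Marco (1.66 on that array) contributed. No member of the lists for skeletal muscle (14 genes), squamous epithelium (12), fat (14), cartilage (12), liver (8) or thyroid and parathyroid (6) passed the criterion below in either direction. Their median log2 changes were 1.99, -0.27, 0.98, 0.41, -0.26 and 1.51 in that order. All muscle, fat and thyroid and parathyroid genes and 11 cartilage genes lay above 0, whereas 8 squamous and 6 liver genes lay below. Since these transcripts were uneven between arrays, the missing calls do not show equal amounts at both doses.

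**Figure D1:**
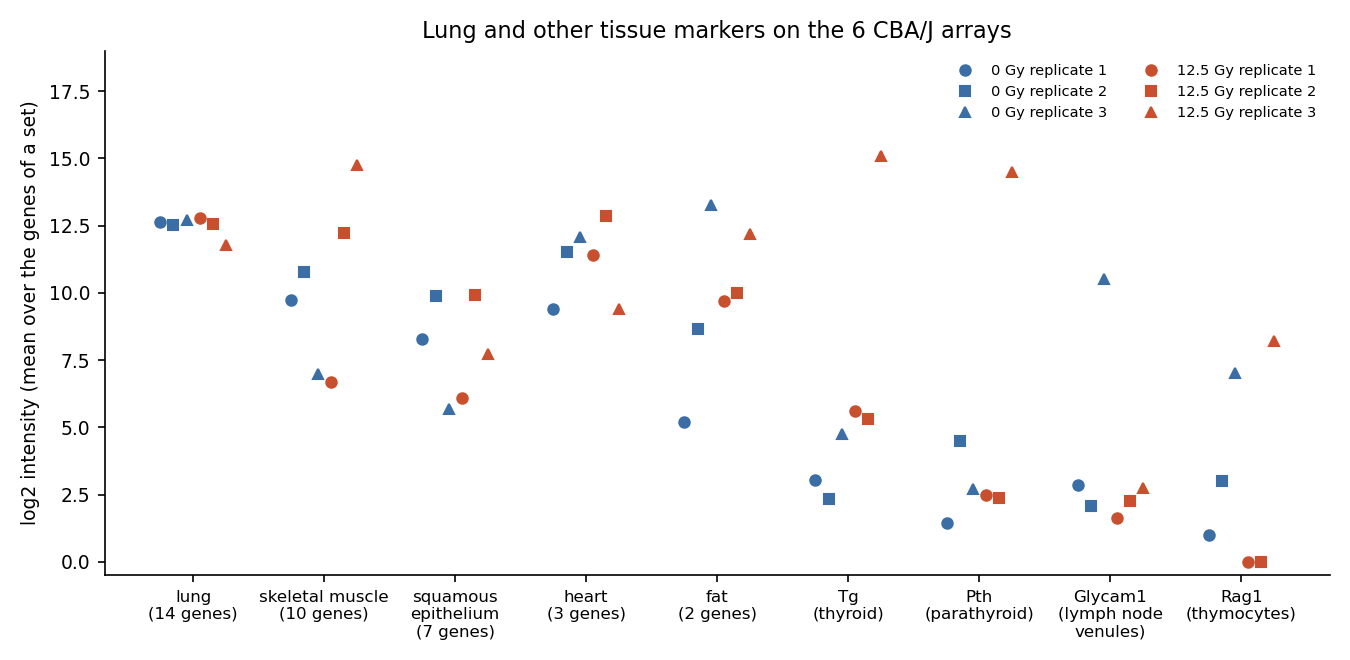
Log2 intensity of tissue markers on the 3 arrays at 0 Gy (blue) and the 3 at 12.5 Gy (red) of CBA/J lung, as the mean over the genes of a set or as 1 gene. The mean of the lung markers differs by less than 1 log2 unit, whereas the skeletal muscle mean runs from 6.70 to 14.75 and Tg, Pth and Glycam1 stand out on 1 array each.

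At the study's criterion, an unadjusted limma p under 0.01, 594 of 18194 genes differed between the doses, which is 3.26% of the genes tested. Of these 169 (0.929%) were higher and 425 (2.34%) lower at 12.5 Gy, and 1915 genes (10.5%) had an unadjusted p under 0.05. The median log2 change of all genes was -0.02. At a Benjamini-Hochberg adjusted p under 0.05 only 6 genes remained (0.033%). Cdkn1a and Ccng1 rose, and Btla, Gm36723, Cep295nl and Pgc fell. The words rose and fell are kept for these 6, and "higher" or "lower" stands for a gene past the unadjusted criterion. The count of 6 did not survive the loss of an array: with any 1 of the 6 left out, 0 genes passed, except that 1 other gene passed without 12.5 Gy replicate 2. The count of 594 went down to 378 without 0 Gy replicate 1, 357 without 0 Gy replicate 2 and 384 without 12.5 Gy replicate 2. In 3420 genes (18.8%) the values of both groups did not overlap, 1375 of them (7.56%) higher and 2045 (11.2%) lower at 12.5 Gy. Of the 135 genes named here that passed, 85 kept an unadjusted p under 0.01 whichever array was left out, and 101 kept it with the replicate number as a block.

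**Figure D2:**
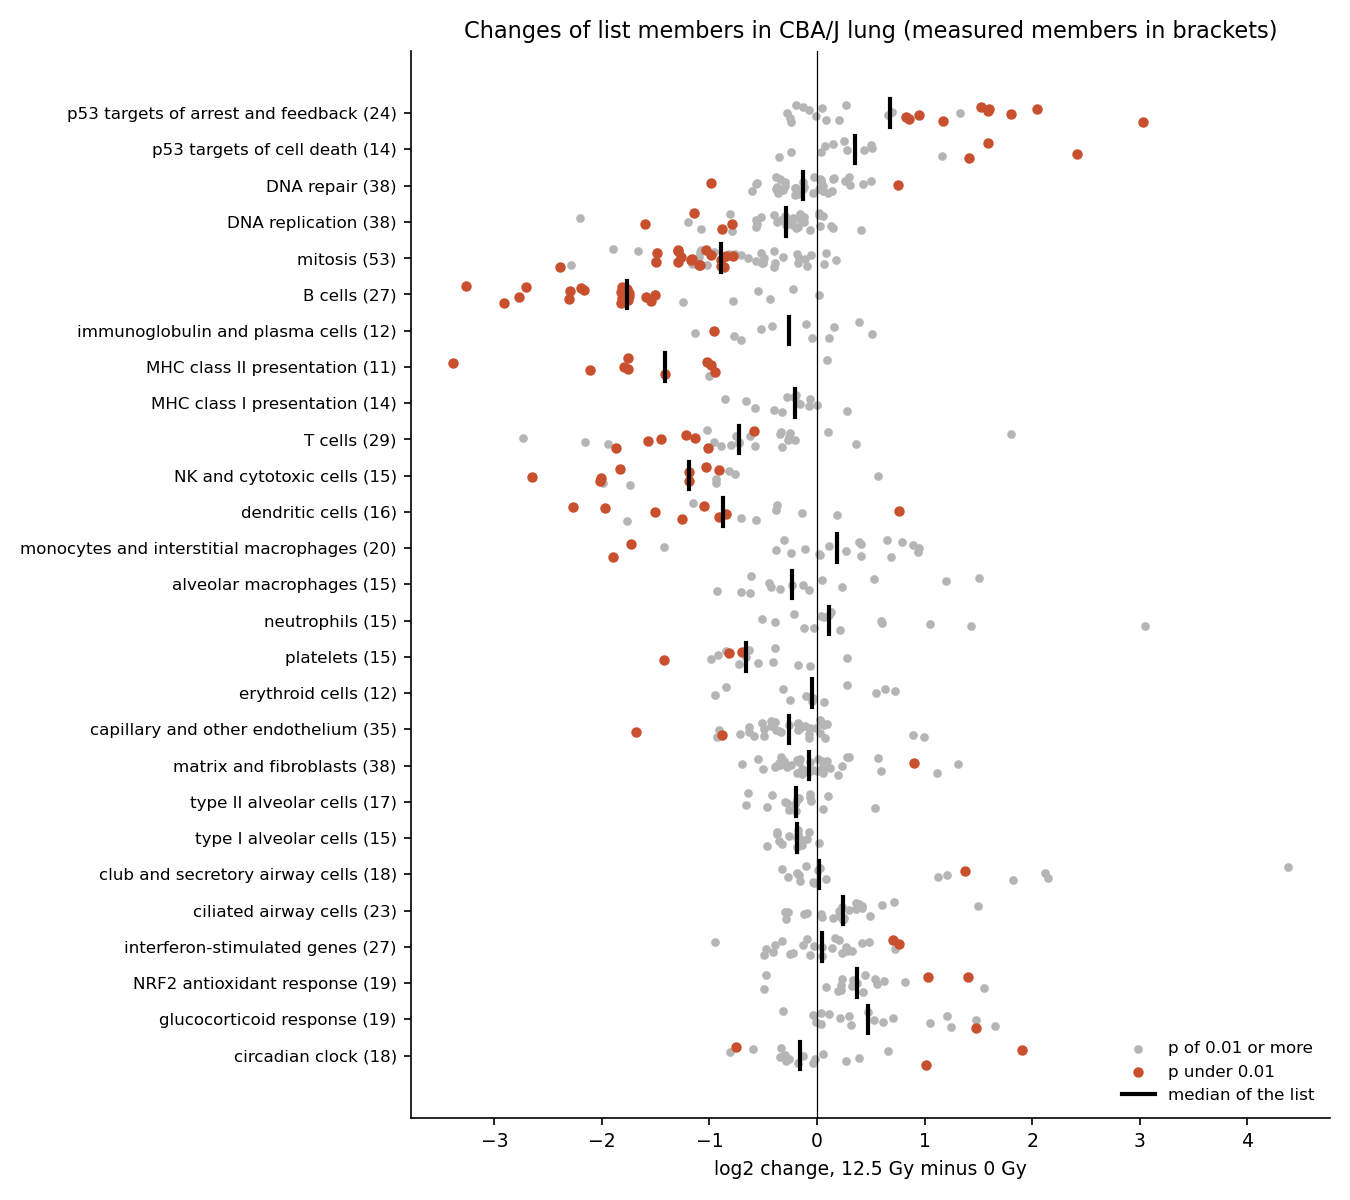
Log2 change between 12.5 and 0 Gy in CBA/J lung for each measured member of 27 gene lists, with the members at an unadjusted p under 0.01 in red and a bar at the median of the list. The p53 lists lie to the right of 0, with medians of 0.68 and 0.36, and the lists for mitosis, B cells, MHC class II, T cells, NK cells and dendritic cells to the left.

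Targets of p53 stood among the higher genes. Of 24 genes of arrest and feedback 10 were higher and 0 lower, beside 0.929% of all genes that were higher, and of 14 measured genes of cell death 3 were higher and 0 lower. Their median log2 changes were 0.68 and 0.36. Cdkn1a, the inhibitor of cyclin-dependent kinases, stood at 10.22, 10.25 and 9.86 at 0 Gy and 13.39, 13.21 and 12.83 at 12.5 Gy. It rose by 3.03 ± 0.21 (SE) on the log2 scale, or 8.17-fold, with an adjusted p of 0.0372 by limma. Every irradiated array lay far above every sham array. Ccng1, cyclin G1, stood at 11.61, 11.71 and 11.40 and then 13.52, 13.60 and 13.73, a rise of 2.04 ± 0.15 or 4.13-fold with an adjusted p of 0.0381. Phlda3, which restrains AKT signalling, went from 10.43, 10.35 and 10.43 at 0 Gy to 12.35, 12.40 and 11.87 at 12.5 Gy, and its change of 1.81 ± 0.19 had a p of 8.62e-05. The groups did not overlap in any of these 3 genes.

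Further members of the arrest list were of like size. Sesn2, a stress sensor that lowers mTOR activity, was at 8.22, 7.95 and 8.41 at 0 Gy and 10.13, 9.77 and 9.45 at 12.5 Gy (log2 change 1.59 ± 0.23). Zmat3, an RNA-binding zinc finger protein, was at 9.11, 9.11 and 8.86 and 10.81, 10.90 and 10.18 (change 1.60 ± 0.23). Trp53inp1 was higher by 1.17, Gtse1 by 1.52, Polk, a translesion polymerase, by 0.94, Ei24 by 0.86 and Tob1 by 0.82. Polk and Ei24 lost the criterion without 0 Gy replicate 2, 12.5 Gy replicate 1 or 12.5 Gy replicate 2, among others, and with the replicate block (p of 0.0132 and 0.0147). Mdm2, the ligase that returns p53 to its low level, was at 10.21, 10.10 and 10.18 and 11.12, 10.80 and 10.57. Its values did not overlap either, but its p of 0.011 missed the criterion, with a change of 0.66 and a 95% interval from 0.22 to 1.105. Btg2 (0.21), Sesn1 (-0.25) and Plk2 (-0.28) also missed it.

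Of the cell death genes, Aen, an apoptosis-enhancing nuclease, had close values, 8.87, 8.81 and 8.87 at 0 Gy and 10.30, 10.47 and 10.54 at 12.5 Gy. Its change was 1.59 ± 0.13, or 3.02-fold, with an adjusted p of 0.054. Eda2r, of the TNF receptor family, was at 5.87, 6.84 and 6.80 and 9.24, 9.13 and 8.38 (change 2.41 ± 0.37). Bbc3, which encodes the BH3-only protein PUMA, was at 7.99, 8.02 and 7.97 and 9.62, 9.71 and 8.90 (change 1.42 ± 0.24). On 12.5 Gy replicate 3, the array with thyroid and muscle transcripts, Eda2r and Bbc3 had their lowest irradiated value. The death receptors Fas (0.50, p of 0.176) and Tnfrsf10b (1.16, p of 0.0301) did not pass. Without 12.5 Gy replicate 3, 11 members of the arrest list and 4 of the death list were higher, and between the arrays nearly free of muscle transcripts the medians of both lists were 0.81 and 0.47.

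**Figure D3:**
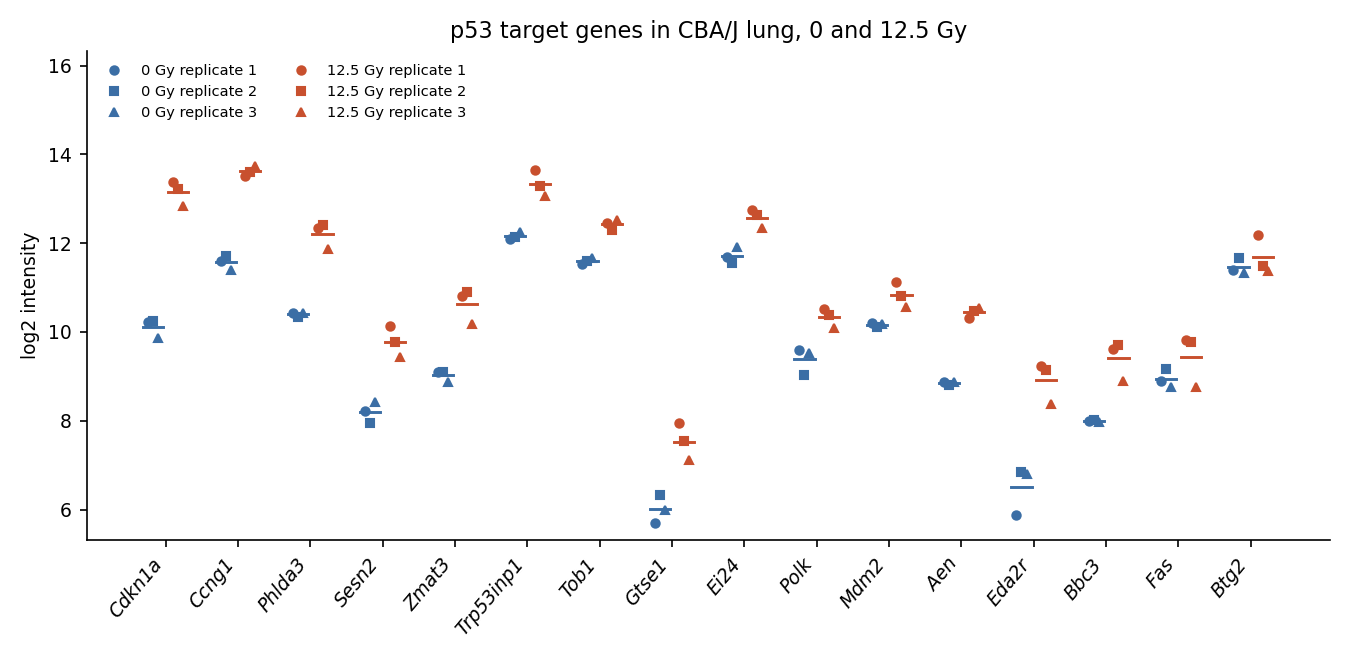
Log2 intensity of 16 p53 target genes on each array at 0 Gy (blue) and 12.5 Gy (red) in CBA/J lung, with a bar at the mean of the 3 arrays. Cdkn1a rises from a mean of 10.11 to one of 13.14 with no overlap, whereas the groups of Fas and Btg2 overlap.

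p53 binds pairs of a short, nearly palindromic half-site. RefSeq's promoter windows, 250 bases before to 50 after a start site on GRCm38.p6, were searched for its half-site consensus. Of the 13 higher p53 targets 11 had a window, and 6 of these (54.5%) held a half-site, beside 8.59% of all measured genes with a window. Of all 30 members of both p53 lists with a window, called or not, 11 (36.7%) held a half-site. The 3 windows below belong to the p53 targets with the lowest p that held one, with each match in capitals. The Cdkn1a stretch belongs to the upstream one of the start sites that RefSeq lists, and the Aen match lies just after its start.
Cdkn1a, chr17:29090896-29090947, strand +: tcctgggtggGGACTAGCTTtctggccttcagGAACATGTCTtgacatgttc
Ccng1, chr11:40755452-40755481, strand -: agacctgcccGGGCAAGCCTtggcactgaa
Aen, chr7:78895927-78895956, strand +: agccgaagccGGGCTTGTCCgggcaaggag
A match is a description of the letters and no evidence of binding in these samples.

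Genes of DNA repair passed singly. Of 38 measured, Chek2, the checkpoint kinase, was higher (7.59, 7.86 and 8.06 at 0 Gy, 8.50, 8.59 and 8.67 at 12.5 Gy, change 0.75 ± 0.17), and Rad54l, a helper of homologous recombination, was lower (7.20, 6.82 and 7.12 and 6.03, 6.25 and 5.89, change -0.99 ± 0.18). Each makes up 2.63% of the list, beside 0.929% of all genes higher and 2.34% lower, and the median of the list was -0.13. Chek2 passed in no fit that left out an array other than 0 Gy replicate 3. Chek1 had a change of -0.61 and a p of 0.0116.

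Many genes of mitosis were lower at 12.5 Gy. Of 53 measured, 18 were lower and 0 higher (34% against 2.34% of all genes lower), with a median log2 change of -0.89, and in 33 the groups did not overlap, where 11.2% of all genes lay apart and lower. Top2a, the topoisomerase that untangles chromosomes, was at 8.72, 8.44 and 8.70 at 0 Gy and 7.51, 7.39 and 7.45 at 12.5 Gy, a change of -1.17 ± 0.14 with a p of 0.000224. Mki67, the proliferation antigen Ki-67, was at 9.29, 8.22 and 9.24 and 6.77, 6.24 and 6.57, which is 5.24-fold lower (log2 change -2.39 ± 0.34). The kinesin Kif11, which pushes spindle poles apart, was at 7.53, 7.23 and 7.63 and 6.21, 6.03 and 6.28 (change -1.29 ± 0.17). In all 3 genes the irradiated arrays lay below the sham arrays, and the spread within a dose was widest in Mki67.

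Kif20a (-1.50 ± 0.24) and Kif23 (-0.87 ± 0.14), motors of the last step of division, were lower too, as were the anaphase activator Cdc20 (-1.29), the centromere protein Cenpf (-1.27), the kinase Aurkb (-0.85) and the condensin subunit Ncapg (-1.29). Cdk1, the kinase of mitotic entry, was at 7.90, 7.32 and 7.84 and 6.71, 6.91 and 7.17, with a p of 0.0156 that missed the criterion. Without 0 Gy replicate 1 or without 12.5 Gy replicate 2 the count of lower mitosis genes was 11 in place of 18. Without 0 Gy replicate 3 or with the replicate number as a block it was 12, and with that block 1.96% of all genes were lower. With the muscle transcripts as a block the mitosis count was 15, beside 2.12% of all genes lower in that fit. Cenpf and Aurkb were each lost with 5 of the 6 arrays left out in turn, and Cdc20 and Ncapg with the replicate block (p of 0.0125 and 0.0116). Among 38 genes of DNA replication 4 were lower (10.5%, beside 2.34% of all genes lower) and 0 higher, with a median of -0.29. Rrm2, a subunit of ribonucleotide reductase, was at 9.39, 8.75 and 9.23 at 0 Gy and 7.43, 7.83 and 7.33 at 12.5 Gy (change -1.60 ± 0.24). The licensing factor Cdt1 (log2 change -1.14) and the helicase subunits Mcm3 (-0.79) and Mcm5 (-0.88) were lower too, the last 2 in a single one of the 6 fits that left out an array. The count of 4 was 2 without 0 Gy replicate 1, 12.5 Gy replicate 1 or 12.5 Gy replicate 2.

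The DREAM complex and its partners act through a CCAAT box and the cell cycle homology region TTTGAA. Both strands of the promoter windows were searched for these letters, so CCAAT also counts as ATTGG and TTTGAA as TTCAAA, and the motifs do not overlap. Of the 18 lower mitosis genes 15 had a window, and 11 of the 15 (73.3%) held both. Of all 44 mitosis genes with a window 29 (65.9%) held both, beside 6.21% of all measured genes with a window. The share was thus high over the whole list already. The following stretches show how the matches, in capitals, lie in 4 of the lower genes.
Top2a, chr11:99024197-99024346, strand -: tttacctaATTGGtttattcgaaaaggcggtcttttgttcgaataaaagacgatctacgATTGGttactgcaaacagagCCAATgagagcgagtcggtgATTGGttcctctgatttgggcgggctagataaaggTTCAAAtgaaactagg
Kif11, chr19:37376327-37376378, strand +: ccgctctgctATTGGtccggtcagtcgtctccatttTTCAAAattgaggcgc
Ccnb2, chr9:70421535-70421684, strand -: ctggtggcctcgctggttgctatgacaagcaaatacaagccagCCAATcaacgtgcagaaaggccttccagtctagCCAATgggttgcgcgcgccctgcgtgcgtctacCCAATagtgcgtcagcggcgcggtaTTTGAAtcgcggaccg
Mki67, chr7:135716462-135716577, strand -: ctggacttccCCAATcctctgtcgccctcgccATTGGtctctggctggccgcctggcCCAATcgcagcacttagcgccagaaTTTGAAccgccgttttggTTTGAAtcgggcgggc
Ccnb2, cyclin B2, was itself at 7.86, 7.19 and 7.60 at 0 Gy and 6.49, 6.45 and 6.44 at 12.5 Gy (change -1.09 ± 0.20).

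B cell genes were the list with the most lower members among the 42 lists. Of 27 measured 20 were lower and 0 higher (74.1%, beside 2.34% of all genes lower), with a median log2 change of -1.77. Btla, an inhibitory receptor of B and T cells, was at 9.43, 9.70 and 9.68 at 0 Gy and 6.97, 6.84 and 6.88 at 12.5 Gy. It fell by 2.71 ± 0.14 on the log2 scale, which is 6.54-fold, with an adjusted p of 0.0352, the lowest p of all genes. Ms4a1, which encodes CD20, was at 10.62, 11.20 and 10.46 and 8.47, 7.91 and 7.16 (change -2.91 ± 0.39, 7.51-fold lower). Cd79a, the signalling chain of the B cell receptor, was at 8.99, 9.37 and 8.94 and 7.13, 5.86 and 5.997 (change -2.77 ± 0.37). In none of these genes did an irradiated array reach the lowest sham array, and the irradiated values of Ms4a1 and Cd79a spread over more than 1 log2 unit.

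Spib, a transcription factor of B cells and plasmacytoid dendritic cells, was at 8.83, 9.08 and 9.04 and 7.36, 7.18 and 7.18 (change -1.74 ± 0.14), and Tnfrsf13b, the receptor TACI, at 8.43, 8.49 and 8.75 and 6.83, 6.82 and 6.56 (change -1.82 ± 0.16). Cd72 (-1.51), the IgM receptor Fcmr (-1.75), the complement receptor Cr2 (-2.20) and the IgE receptor Fcer2a (-2.31) were lower as well. The last 2 also stand in the list for lymph node venules and stroma, of which they were the only members to pass among 6. They make up 33.3% of that list, beside 2.34% of all genes lower. Glycam1 marked lymph node transcripts on 0 Gy replicate 3, where Ms4a1 and Cd79a were the lowest of the 3 sham arrays and Tnfrsf13b the highest, and 18 of the 27 were lower without that array. Over the arrays left out in turn the count ran from 18 to 20. Between the arrays nearly free of muscle transcripts the median of the list was -1.47.

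Antibody genes were less uniform. Among 12 measured immunoglobulin and plasma cell genes only Mzb1, a chaperone of antibody secretion, was lower (8.66, 8.98 and 8.99 and 8.11, 7.82 and 7.84, change -0.96 ± 0.17), and its p was 0.0102 with the replicate block. Mzb1 is 8.33% of the list, beside 2.34% of all genes lower. Ighm, the heavy chain of IgM, was at 11.37, 11.17 and 11.84 at 0 Gy and 11.07, 10.86 and 9.03 at 12.5 Gy, with a p of 0.0974, and most of that difference lay in 12.5 Gy replicate 3. The variable segment Ighv14-2 was at 9.51, 10.16 and 10.06 and 6.60, 6.68 and 5.92 (change -3.51 ± 0.29, adjusted p 0.054). Probe sets of variable segments can take up transcripts of near-identical segments, so that name is uncertain. Cd180, a Toll-like receptor relative on B cells, was at 8.07, 8.05 and 8.14 and 6.17, 6.23 and 6.61 (change -1.75 ± 0.17).

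**Figure D4:**
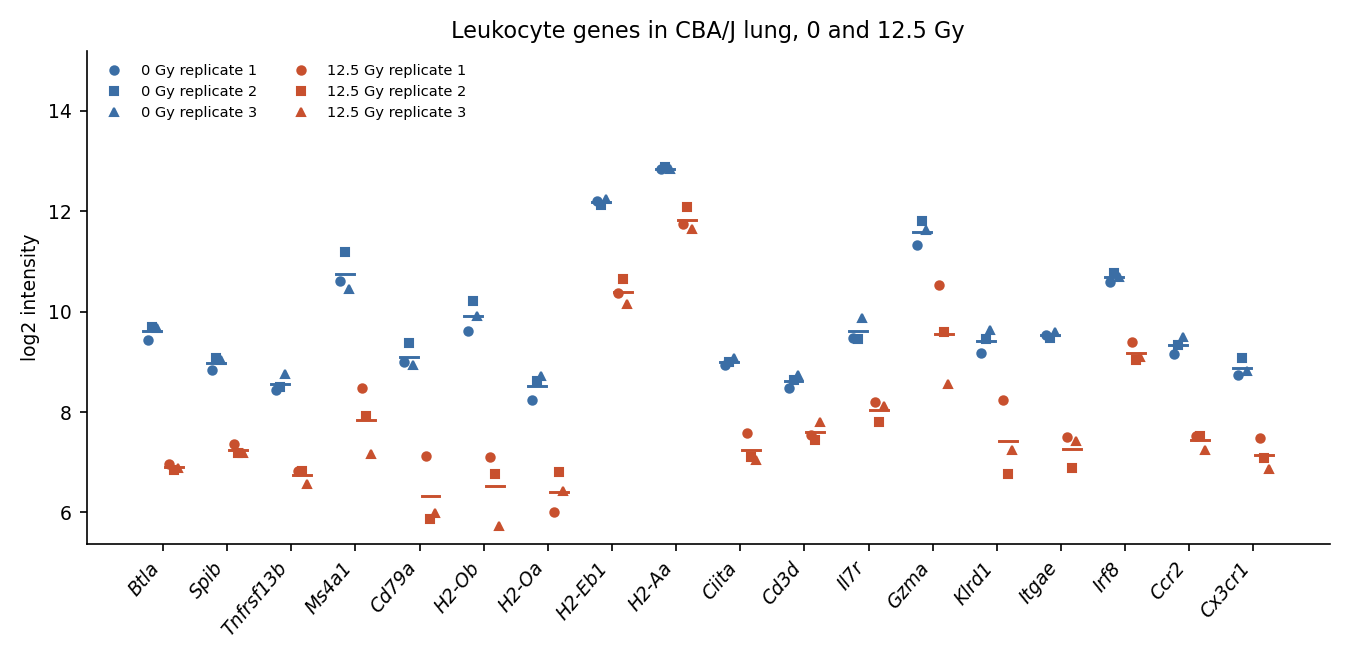
Log2 intensity of 18 leukocyte genes on each array at 0 Gy (blue) and 12.5 Gy (red) in CBA/J lung, with a bar at the mean of the 3 arrays. The genes shown were chosen from those lower at an unadjusted p under 0.01 by limma. Leukocyte genes that did not pass, such as Cd4 and S100a8, are not drawn, nor is Bst2, which was higher. All irradiated arrays lie below all sham arrays in each gene shown. The spread among irradiated arrays is narrow in Btla and Spib and wide in Gzma, where they run from 8.57 to 10.53.

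Genes of MHC class II presentation load and show peptides on B cells, dendritic cells and macrophages. They were lower in 9 of 11 measured (81.8%, beside 2.34% of all genes lower), with 0 higher and a median of -1.41. H2-Ob, a chain of the B cell peptide editor H2-O, was at 9.62, 10.21 and 9.92 at 0 Gy and 7.11, 6.76 and 5.73 at 12.5 Gy, 10.4-fold lower (log2 change -3.38 ± 0.39). H2-Oa, its partner, was at 8.25, 8.61 and 8.72 and 6.01, 6.80 and 6.43 (change -2.11 ± 0.25). Ciita, the master activator of the class II genes, was at 8.94, 9.01 and 9.07 and 7.58, 7.11 and 7.05 (change -1.76 ± 0.18, p of 9.5e-05). The dose groups lay apart in all 3, by more than 1 log2 unit even between their nearest arrays.

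The classical chains were lower as well. H2-Eb1 was at 12.20, 12.12 and 12.25 and 10.37, 10.65 and 10.15 (change -1.80 ± 0.17), H2-Ab1 had a change of -1.41 and H2-Aa one of -1.03, from a sham mean of 12.85 ± 0.02 (SD, n = 3). H2-DMb2, of the editor H2-DM, had a change of -1.75 and its relative H2-DMa one of -0.98, which lost the criterion in 4 of the 6 fits that left out an array. Cd74, the invariant chain, was at 13.77, 13.75 and 13.47 and 13.06, 13.02 and 11.91. The difference did not pass (95% interval of the change from -1.85 to -0.15, p of 0.0284), and it was lowest on 12.5 Gy replicate 3. The count was 8 or 9 whichever array was left out, and 9 with the muscle transcripts as a block.

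Class II promoters carry an X box, bound by the RFX factors, and a Y box, bound by NF-Y, before the start site. The letters of the Y box, CCAAT or ATTGG on the other strand, stood in the window of all 7 measured class II genes that had one, beside 42% of all measured genes. The letters AACNGATG of the X box stood, on either strand, in 3 of the 7 and in 2.32% of all measured genes. The stretches show these matches in capitals for 4 of the lower genes; H2-Eb1 holds both boxes, and the motifs do not overlap.
H2-Eb1, chr17:34305768-34305846, strand +: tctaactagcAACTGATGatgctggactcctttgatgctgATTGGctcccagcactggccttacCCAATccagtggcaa
H2-Oa, chr17:34092326-34092350, strand +: aactgctctgATTGGctgcttaccg
H2-Aa, chr17:34287857-34287881, strand -: gaattttctgATTGGttctggcgag
H2-Ob, chr17:34238838-34238862, strand +: ttcgctcttgATTGGttaacagtgt
Of 14 genes of MHC class I presentation none passed, with a median of -0.21. B2m, the light chain of class I, was at 14.17, 14.26 and 13.81 and 14.21, 14.17 and 13.64. Psmb8, Psmb9 and the activator Nlrc5 had p-values of 0.012, 0.0281 and 0.0101 and changes of -0.58, -0.66 and -0.85.

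T cell genes were lower in part. Of 29 measured 7 were lower and 0 higher (24.1%, beside 2.34% of all genes lower), the median was -0.73, and in 17 the groups did not overlap, where 11.2% of all genes lay apart and lower. Cd3d, a chain of the T cell receptor complex, was at 8.48, 8.64 and 8.73 at 0 Gy and 7.55, 7.45 and 7.80 at 12.5 Gy (change -1.02 ± 0.16). Il7r, the receptor for the survival cytokine IL-7, was at 9.48, 9.46 and 9.88 and 8.20, 7.79 and 8.11 (change -1.57 ± 0.19), and Ccr7, which guides naive T cells to lymph nodes, at 8.30, 8.54 and 8.48 and 6.68, 6.90 and 6.12 (change -1.87 ± 0.23). Cd2 (-1.13), Cd3g (-1.22), Cd5 (-0.58) and Tbx21, the T-bet factor of Th1 and NK cells (-1.46), passed too. Cd3e (-0.96, p of 0.0349), Cd8a (-0.25, p of 0.405), Cd4 (-0.27, p of 0.683) and Foxp3 of regulatory T cells (-0.34, p of 0.222) did not. The count of 7 was 4 without 0 Gy replicate 1, 0 Gy replicate 2 or 12.5 Gy replicate 2, 9 without 12.5 Gy replicate 3 and 5 without 0 Gy replicate 3, the array with Glycam1, on which Il7r and Cd3d had their highest value. Il7r, Ccr7, Cd3d and Cd2 were lower whichever array was left out. Of 11 thymocyte genes, Rag2 alone was lower, at low levels (5.30, 5.31 and 5.94 and 2.91, 1.45 and 2.33), while Rag1 reached 7.004 on 0 Gy replicate 3 and 8.20 on 12.5 Gy replicate 3. Rag2 is 9.09% of that list, beside 2.34% of all genes lower.

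Of 15 measured genes of NK and cytotoxic cells 8 were lower and 0 higher (53.3%, beside 2.34% of all genes lower), with a median of -1.19. Gzma, the granule protease granzyme A, was at 11.32, 11.81 and 11.62 at 0 Gy and 10.53, 9.59 and 8.57 at 12.5 Gy (change -2.02 ± 0.50). Klrd1, the CD94 receptor, was at 9.18, 9.46 and 9.64 and 8.25, 6.76 and 7.24 (change -2.01 ± 0.40), and Klrg1 (-1.84), Nkg7 (-1.19), Cd244a (-1.19) and the IL-2 receptor chain Il2rb (-0.91) were lower too. Of these 6 only Cd244a was lower whichever array was left out. In Gzma and Klrd1 the irradiated array nearly free of muscle transcripts, replicate 1, had the highest irradiated value, and the median of the list between the arrays nearly free of them was -0.64, against -1.21 between the others. The part of the other tissues in this difference was not tested. The count of 8 was 3 without 0 Gy replicate 1, 1 without 0 Gy replicate 2, 2 without 0 Gy replicate 3, 3 without 12.5 Gy replicate 2, 10 without 12.5 Gy replicate 1 and 4 without 12.5 Gy replicate 3 or with the replicate number as a block, under which Gzma and Klrd1 had a p of 0.0192 and 0.0112. In that block fit 1.96% of all genes were lower.

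Among 16 measured dendritic cell genes 7 were lower and 1 higher, with a median of -0.88. These are 43.8% and 6.25% of the list, beside 2.34% of all genes lower and 0.929% higher. Itgae, the integrin CD103 of conventional dendritic cells and tissue T cells, was at 9.54, 9.47 and 9.59 at 0 Gy and 7.50, 6.89 and 7.42 at 12.5 Gy, 4.81-fold lower (log2 change -2.27 ± 0.20). Irf8 and Batf3, the transcription factors that cross-presenting dendritic cells need, had log2 changes of -1.50 and -1.26, and Xcr1, the chemokine receptor of these cells, one of -0.85. Ccl22, a chemokine of mature dendritic cells, was at 7.20, 6.88 and 7.59 and 5.57, 5.50 and 4.68 (change -1.98 ± 0.32). Cd209a and Cd83 completed the lower members (-0.91 and -1.05), of which Xcr1 was lost in 4 of the 6 fits that left out an array. Bst2 (tetherin), which the list holds as a plasmacytoid marker and which interferon induces, was the higher one (9.73, 9.68 and 9.36 and 10.22, 10.65 and 10.19), and its p of 0.00869 passed in no fit that left out an array.

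Of 20 genes of monocytes and interstitial macrophages 2 were lower and 0 higher, beside 2.34% of all genes lower. They are the receptors that divide the monocyte subsets. Ccr2, which draws classical monocytes out of the marrow, was at 9.15, 9.33 and 9.50 at 0 Gy and 7.53, 7.53 and 7.24 at 12.5 Gy (change -1.89 ± 0.16, adjusted p 0.0577). Cx3cr1, of patrolling monocytes, was at 8.73, 9.07 and 8.81 and 7.49, 7.08 and 6.86 (change -1.73 ± 0.21). Other members of the list lay above 0, among them Cd14 (0.94, p of 0.0212) and Cd163 (0.94, p of 0.0361). None of 15 alveolar macrophage genes passed, with Siglecf at -0.63 and a standard error of 0.56, and none of 15 neutrophil genes, with S100a8 at 0.21 and S100a9 at 0.61. Ptprc, the CD45 of all leukocytes, was at 12.37, 12.51 and 12.38 and 11.41, 11.05 and 10.59 (change -1.41 ± 0.23). Of 26 chemokines Ccl22 and Ccl5 (11.11, 11.20 and 11.03 and 9.86, 8.27 and 8.06, change -2.38 ± 0.49) were lower and none higher. The lower share was 7.69%, beside 2.34% of all genes, and Ccl5 was lost in 5 of the 6 fits that left out an array. Ccl2, a ligand of Ccr2, had a change of 0.90 with a p of 0.0126.

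Platelet genes were lower in 3 of 15 measured (20%, beside 2.34% of all genes lower), with a median of -0.66. Clec1b, the podoplanin receptor CLEC-2, was at 8.79, 8.80 and 9.48 at 0 Gy and 8.01, 7.50 and 7.33 at 12.5 Gy (change -1.42 ± 0.28), and the others were Gp1bb (-0.70) and Tubb1 (-0.82). Gp1bb and Tubb1 were lost in each fit that left out an array and Clec1b without 12.5 Gy replicate 2 or 3. The count was 0 without 12.5 Gy replicate 2 or 3, 1 without any 1 sham array or with the replicate block, and 2 without 12.5 Gy replicate 1. With the replicate block 1.96% of all genes were lower. No gene passed among 12 of erythroid cells. In the endothelium 2 of 35 genes were lower, beside 2.34% of all genes. The median of that list was -0.26, but it was 0.32, with 26 of 35 above 0, between the arrays nearly free of muscle transcripts and -0.69 between the others. Aplnr, the apelin receptor of general capillary cells, was at 13.28, 13.35 and 12.83 and 11.76, 11.32 and 11.34, 3.2-fold lower (log2 change -1.68 ± 0.22), and Sox17, an arterial factor, had a change of -0.88 and lost the criterion without any one sham array or 12.5 Gy replicate 2. Mmrn2, an extracellular protein of endothelium, was higher, from 11.34, 11.15 and 11.29 to 12.61, 12.43 and 12.54 (change 1.27 ± 0.13). The capillary gene Gpihbp1 had a change of -0.91 and missed the criterion (p of 0.0183), with a change of -0.21 between the arrays nearly free of muscle transcripts.

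The epithelial lists held few called genes. No gene passed among 17 of type II alveolar cells, 15 of type I alveolar cells or 23 of ciliated cells, and the medians were -0.20, -0.18 and 0.24. The last 2 medians had opposite signs on arrays with and without muscle transcripts. Between the arrays nearly free of them the type I median was 0.46, with all 15 genes above 0, against -0.66 between the others. For ciliated cells the same medians were -0.11 and 0.45, and the part of the other tissues in these differences was not tested. Sftpb, a surfactant protein, was at 13.89, 13.82 and 13.98 at 0 Gy and 13.94, 13.77 and 13.38 at 12.5 Gy, and Ager of type I cells at 14.64, 14.68 and 14.63 and 14.66, 14.37 and 14.50, with 95% intervals of the change from -0.66 to 0.25 and from -0.48 to 0.20. Among 18 club and secretory cell genes Gsto1, a glutathione transferase of the omega class, was higher (11.60, 12.05 and 12.02 and 12.85, 13.38 and 13.57, change 1.38 ± 0.25). The antimicrobial lectin Reg3g (4.37, 9.26 and 10.96 and 11.64, 11.93 and 14.15) and lactoferrin, Ltf (6.22, 7.34 and 10.08 and 8.68, 9.86 and 14.24), varied widely, with p-values of 0.0504 and 0.126. Uchl1, a deubiquitinase of neuroendocrine cells and nerves, was the only one of 11 neuroendocrine genes to pass (5.77, 6.21 and 6.64 and 7.35, 8.10 and 7.48, change 1.44 ± 0.31). Of 38 matrix and fibroblast genes the gelatinase Mmp2 was higher (11.82, 11.69 and 11.61 and 12.63, 12.86 and 12.34, change 0.90 ± 0.18). That is 2.63% of the list, beside 0.929% of all genes higher. Gsto1 makes up 5.56% and Uchl1 9.09% of its own list. None of 19 genes of cholesterol synthesis passed, and of 14 cardiac muscle genes Myh7 was lower (-0.72 ± 0.17). That is 7.14% of the cardiac list, beside 2.34% of all genes lower. With 1 array left out in turn, Gsto1 always passed, Mmp2 was lost without 0 Gy replicate 2 or 3, Uchl1 without 0 Gy replicate 1 or 2 or 12.5 Gy replicate 2, and Myh7 in 5 of 6 fits.

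Genes of the stress pathways passed singly. Ephx1 and Srxn1, 2 of 19 measured targets of the antioxidant factor NRF2, were higher (10.5%, beside 0.929% of all genes higher). Ephx1, the microsomal epoxide hydrolase, was at 11.70, 11.66 and 11.58 at 0 Gy and 13.20, 13.18 and 12.78 at 12.5 Gy (change 1.41 ± 0.17), and Srxn1, which repairs peroxiredoxins, at 8.47, 8.31 and 8.14 and 9.24, 9.52 and 9.27 (change 1.03 ± 0.16). Gclc (0.54, p of 0.0203) and Slc7a11 (1.55, p of 0.0133) of glutathione synthesis did not pass. In the circadian clock, 18 genes, the repressor Nfil3 (6.54, 6.09 and 6.25 and 7.76, 7.80 and 9.03) and the core factor Arntl (6.68, 6.95 and 6.49 and 8.03, 7.23 and 7.89) were higher, and Nr1d1, which represses Arntl, was lower (10.13, 10.02 and 9.66 and 9.16, 9.26 and 9.12). They make up 11.1% (higher) and 5.56% (lower) of the list, beside 0.929% and 2.34% of all genes. Among them, Nfil3 was lost without 0 Gy replicate 2 or 3 and the others in 5 of the 6 fits that left out an array. The hour of death is not given beyond the 24 hours.

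Among 19 genes that glucocorticoids induce, Fkbp5 was higher (8.74, 8.65 and 9.55 and 10.56, 10.84 and 9.97, change 1.47 ± 0.34), and Zbtb16 (1.65, p of 0.0155), Tsc22d3 (0.61, p of 0.0297) and Mt2 (1.48, p of 0.027) missed the criterion. Of 27 interferon-stimulated genes, Ifi27l2a (0.71 ± 0.15) and Bst2 were higher (7.41%, beside 0.929% of all genes higher) and the median was 0.05. The stress factor Atf3, of 23 immediate early genes, was higher by 0.82 ± 0.18. Ddit4, an mTOR inhibitor that hypoxia and p53 both induce, was the 1 gene of 21 in the hypoxia list to pass (10.38, 10.05 and 10.41 and 11.14, 11.13 and 11.47, change 0.97 ± 0.18), and it passed whichever array was left out. Fkbp5 and Ifi27l2a were each lost in 4 of the 6 such fits and Atf3 in 5, and with the replicate block Fkbp5 had a p of 0.0285. As the only higher genes of their lists, Fkbp5, Atf3 and Ddit4 make up 5.26%, 4.35% and 4.76%, beside 0.929% of all genes higher.

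Of the other genes that the rule for naming brought up, some had no list. Ces2e, a carboxylesterase, was higher by 2.18 ± 0.27, Celf5, an RNA-binding protein, by 2.05 ± 0.21, Dglucy, a D-glutamate cyclase, by 1.61 ± 0.18 and the tetraspanin Tspan1 by 1.44 ± 0.16. Gm36723 was at 6.05, 6.27 and 6.33 at 0 Gy and 2.89, 2.91 and 3.48 at 12.5 Gy. It fell by 3.12 ± 0.21 (adjusted p 0.0372). BC035044 had a change of -1.65 ± 0.15. Cep295nl (5.18, 5.48 and 5.14 and 2.49, 1.99 and 2.37) and Pgc (5.09, 5.25 and 5.37 and 2.81, 3.11 and 2.75), which passed the adjusted p, had all their values below 6 on the log2 scale, where probe sets are near background.

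From the genes that the study named on arrays of the other strains a list of 15 was chosen, of which 13 were measured here. The study's tables name more genes, and some of these, such as Cd3d, Cd79a and Bbc3, passed and are given with other lists. Of the 13 in CBA/J, Cdkn1a rose and Batf3 and Pon1, the paraoxonase, were lower. They make up 7.69% (higher) and 15.4% (lower) of the list, beside 0.929% and 2.34% of all genes. Pon1 was at 12.11, 12.07 and 12.07 at 0 Gy and 11.34, 10.997 and 11.58 at 12.5 Gy (change -0.78 ± 0.18) and lost the criterion in 5 of the 6 fits that left out an array. Retnla, a secreted protein of the resistin family, was at 10.77, 10.86 and 13.93 and 12.53, 12.71 and 12.39, and its groups overlapped because 0 Gy replicate 3 was the highest of the 6 (p of 0.463). Auts2 (-0.42, p of 0.149), Gria1 (-0.05, p of 0.856), Specc1 (-0.73, p of 0.0124), Cyp26b1 (-0.62, p of 0.257), the complement gene C1qb (0.65, p of 0.0664), Ms4a6d (0.41, p of 0.108), Rgs4 (p of 0.989) and Zfp319 (0.09, p of 0.641) did not pass.

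CBA/J arrays at 15 Gy share the sham arrays, so their values are given only side by side. Cdkn1a was at 13.43, 13.52 and 13.42 at 15 Gy, Ccng1 at 13.50, 13.59 and 13.48, Btla at 7.01, 7.12 and 6.95, Ccr2 at 7.44, 7.67 and 7.63 and Aplnr at 11.74, 11.85 and 11.88. None of these arrays carried muscle transcripts, whose mean ran from 6.43 to 6.94. H2-Eb1 was at 10.42, 10.52 and 10.69 and Gzma at 9.80, 10.21 and 10.08. Cep295nl was at 5.15, 2.73 and 2.75, so that 1 array at 15 Gy stood with the sham arrays.

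The same doses in C57L/J and C57BL/6J, 3 arrays each and none shared with CBA/J, were set beside these genes. Of the 169 genes higher in CBA/J, 133 (78.7%) had a change above 0 in C57L/J and 141 (83.4%) in C57BL/6J, where 48% and 47.9% of all genes did. Of the 425 lower genes, 371 (87.3%) and 381 (89.6%) had a change below 0, where 52% and 52.1% of all genes did. At p under 0.01 in the same direction, 52 of the higher and 171 of the lower genes passed in C57L/J, where 1.67% and 2.85% of all genes did, and 42 and 190 in C57BL/6J, where 0.967% and 2.65% did. In all 3 strains 160 of the 18194 genes passed with 1 direction. Across genes, which are not independent replicates, the log2 changes correlated with Pearson's r of 0.197 between CBA/J and C57L/J and 0.308 between CBA/J and C57BL/6J, and 0.371 and 0.472 over the 14379 genes whose higher CBA/J group mean was at least 6.

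No member of either p53 list had a p under 0.01 of the difference between strains, and of the B, T and NK cell lists 2 members did, both against C57L/J. Cdkn1a changed by 3.03 in CBA/J, 3.30 in C57L/J and 3.12 in C57BL/6J. The 95% intervals of these strain differences were from -0.89 to 0.36 and from -0.74 to 0.57. The B cell list had medians of -1.77, -1.38 and -1.78, and the MHC class II list -1.41, -0.83 and -1.30. Aplnr changed by -1.68, -1.74 and -1.91, and Ccr2 by -1.89, -1.47 and -1.21.

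**Figure D5:**
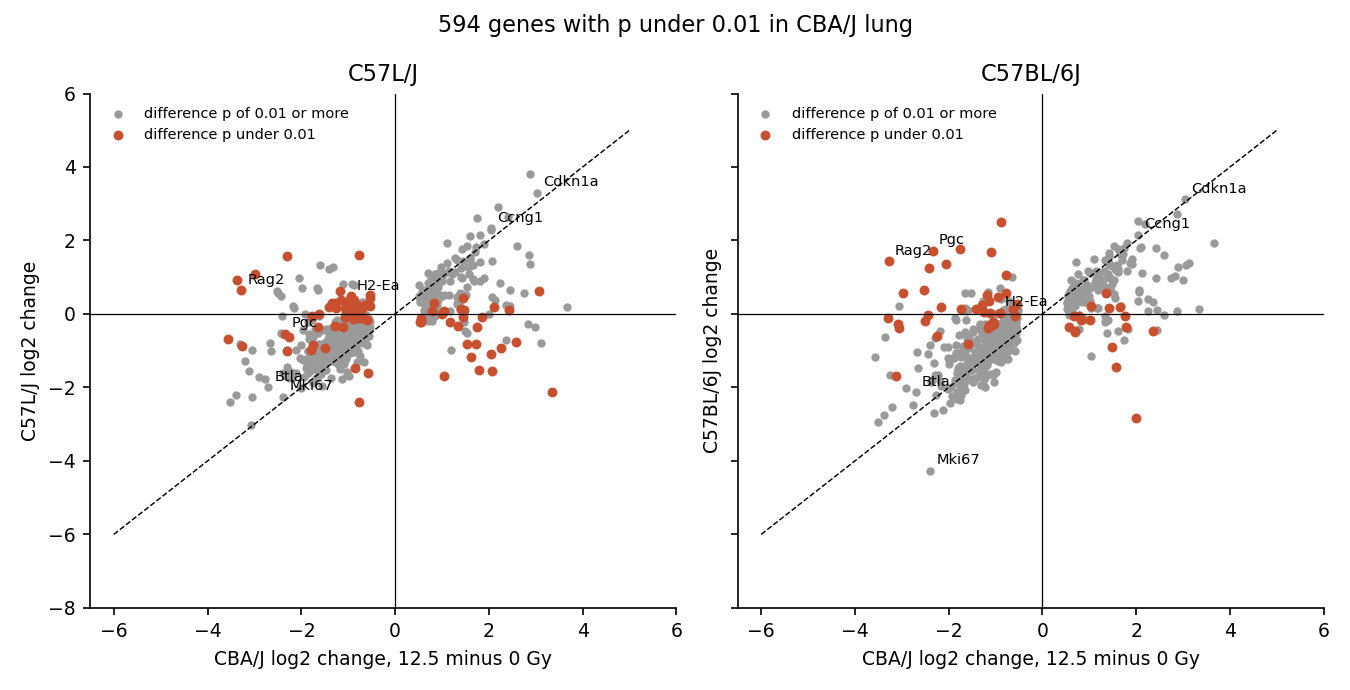
Log2 change between 12.5 and 0 Gy in C57L/J (left) and C57BL/6J (right) against that in CBA/J, for the 594 genes with a p under 0.01 in CBA/J, with genes whose change differed between the strains at a p under 0.01 in red and the line of equal change dashed. Cdkn1a and Ccng1 lie near the line in both panels, and H2-Ea lies below 0 in CBA/J only.

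The test of the difference itself, the interaction of strain and dose, found 233 genes (1.28%) at an unadjusted p under 0.01 against C57L/J and 158 (0.868%) against C57BL/6J. By limma 0 genes had an adjusted p under 0.05 in either (0%). At an unadjusted p under 0.05 there were 1116 (6.13%) and 782 (4.3%). The count against C57L/J was 624 and that against C57BL/6J 292 without 12.5 Gy replicate 1. H2-Ea, the alpha chain of the class II E molecule, had the lowest p against C57L/J among genes with a mean of at least 6. Mice of the b haplotype of H2, to which both other strains belong, are known not to make this chain, whereas CBA/J, of the k haplotype, does. H2-Ea was at 10.14, 10.02 and 10.02 at 0 Gy and 9.07, 9.27 and 9.01 at 12.5 Gy in CBA/J (change -0.94 ± 0.14). In C57L/J its means were 6.16 and 6.65 and in C57BL/6J 6.68 and 6.72, so that the sham level differed between the strains by more than the dose effect. The changes differed by -1.43 ± 0.23 from C57L/J (adjusted p 0.376).

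Other genes with the lowest p of the difference were named by the same rule. Sstr4, a somatostatin receptor, was at 10.01, 10.09 and 9.80 and 8.51, 8.40 and 8.05 in CBA/J, a change of -1.64 against -0.35 in C57L/J (difference -1.30 ± 0.23) and -0.98 in C57BL/6J. Thyn1, a thymocyte protein, changed by 0.34 in CBA/J, 1.57 in C57L/J and 1.24 in C57BL/6J. Acsm1, an acyl-CoA synthetase, was at 6.76, 6.97 and 7.28 and 8.48, 8.53 and 8.95 in CBA/J, a change of 1.65 against 0.18 in C57BL/6J (difference 1.47 ± 0.30). Zfp418 changed by 0.03 in CBA/J and -1.24 in C57BL/6J. The adjusted p of all of these was above 0.05.

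Some listed genes differed between strains too. H2-Eb1 changed by -1.80 in CBA/J and -0.97 in C57L/J, a difference with a p of 0.00162. Irf8 changed by -1.50 and -0.92 (p of 0.00489). Clec1b was lower in CBA/J but changed by 0.20 in C57L/J and 0.13 in C57BL/6J, with p-values of the difference of 0.00226 and 0.00352. Atf3 changed by 0.82 in CBA/J and -0.18 in C57BL/6J (p of 0.00825). S100a8 and S100a9, proteins of neutrophils, changed by 0.21 and 0.61 in CBA/J and by 2.62 and 2.90 in C57BL/6J (p of 0.005 and 0.00888). Between the same doses of C57BL/6J the lists for skeletal muscle and squamous epithelium had medians of 2.60 and 2.15. The part of other tissues in the C57BL/6J changes was not tested. Of 15 neutrophil genes 3 had a p under 0.01 of the difference from C57BL/6J, as had 4 of 27 interferon-stimulated and 4 of 23 immediate early genes, beside 0.868% of all genes. Against C57L/J 4 of 38 matrix genes and 3 of 18 clock genes had one, beside 1.28% of all genes. No other list had more than 2 such genes against either strain.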

How the data were processed

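RNA of the right upper lung lobe, 1 mouse an array, was taken from 27 mice and hybridized to Affymetrix mouse whole-genome arrays. The authors deposited linear intensities of 45101 probe sets, which their processing notes credit to Affymetrix Expression Console 1.1; the deposited intensities of each array had a 2% trimmed mean of 500.0. How probes were summarised into a probe set value is not stated in the labels or methods. The methods state that strains alternated on the irradiation platform, that mice were killed on 1 day and that arrays formed 1 hybridization batch. Array number (3 a group) limits the precision. Arrays were grouped by strain, dose and replicate number of the labels.

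Values under 1 were set to 1 before log2 was taken. A single symbol was known for 34958 probe sets, several for 932 and none for 9211. Each of 18194 genes was represented by the probe set brightest over the 18 arrays of the other strains. Groups were compared with limma 3.58.1 in R 4.3.3 on the 6 CBA/J arrays, two-sided, with Benjamini-Hochberg adjustment over all genes, and strains by the interaction of strain and dose. The study's methods used a random variance t test at an unadjusted p under 0.01. With 3 arrays against 3 an exact permutation test of a single gene cannot give less than 0.1, so none was run. Python 3.11 served for tables and figures. Alternatives were the random variance test, all arrays in 1 fit, an intensity trend, array weights, another probe set, a floor of 32, a filter at a mean log2 of 6, quantile normalization, median-centring, the replicate number or muscle transcripts as a block, and leaving out the muscle arrays or each array. The fits were tested on simulated data.

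Named were the 10 strongest rises and falls with non-overlapping groups and a mean of at least 6, up to 5 called members of each of 42 lists (or the first 3), genes the study names, the 5 genes with the lowest p of each strain difference and markers of other tissues. Further list members were chosen after their values were seen. The comparison and the lists were chosen with earlier results of these data known.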

Additional observations from a re-analysis of the deposited data

Results flagged for a closer look

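Among the 10 genes named for the lowest p of the difference between strains, 5 changed in opposite directions in CBA/J and another strain, with non-overlapping groups in both. They were picked for that p, and none passed after adjustment. Msh5, a MutS homologue of meiosis, had means of 7.16 ± 0.21 (SD) at 0 Gy and 6.01 ± 0.51 at 12.5 Gy in CBA/J (change -1.15), and changed by 0.39 in C57L/J and 0.36 in C57BL/6J. The differences were -1.54 (adjusted p 0.455) and -1.51 (adjusted p 0.755) by limma. Cyp21a1, the steroid 21-hydroxylase, changed by -0.78 in CBA/J and 1.05 in C57BL/6J, a difference of -1.83 (adjusted p 0.638). Lrrc75b changed by 0.70 and -0.48 in the same strains (difference 1.17, adjusted p 0.709). Against C57L/J, Jrk had changes of -0.54 and 0.45 (difference -0.98, adjusted p 0.376) and the phosphatase Mppe1 changes of -0.42 and 0.33 (difference -0.75, adjusted p 0.376). In CBA/J alone, the dose changes of Jrk and Lrrc75b lost the unadjusted criterion with any 1 array left out and those of Msh5 and Cyp21a1 with 5 of the 6, and that of Mppe1 had not passed it (p of 0.0176).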

How the results depend on the processing

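No gene past the criterion and named here changed direction under any alternative run. The 594 genes at an unadjusted p under 0.01 became 1207 in a fit over all 27 arrays and 1289 with array weights, and ran from 357 to 885 with 1 array left out in turn. The 6 genes at an adjusted p under 0.05 became 485 over all 27 arrays, 86 with an intensity trend, 164 with array weights, 25 with a floor of 32, 81 with a filter on low values, 108 without the arrays with muscle transcripts and 156 over 9 CBA/J arrays (chosen after seeing the data). They became 0 with the muscle transcripts as a block, where 1912 genes had an unadjusted p under 0.05, and 0 to 1 with 1 array left out. With the replicate number as a block 0 genes passed adjustment, 544 had an unadjusted p under 0.01 and 2246 one under 0.05. Deviations of same-numbered arrays correlated at 0.084, 0.242 and 0.136 over all genes and at 0.190, 0.497 and 0.235 over the 13883 genes with a mean log2 of at least 6, and each array correlated best with its own number. The labels do not say what a number stands for, so whether it pairs the mice was not settled. Under this block 34 of the 135 called genes named here lost the criterion, among them Cdc20, Ncapg, Mzb1, Gzma, Klrd1, Tbx21, Cd5, Xcr1, Clec1b, Gp1bb, Sox17, Polk, Ei24, Aurkb, Mcm5, Pon1, Fkbp5, Bst2, Ifi27l2a, Arntl and Nr1d1, and Cd14, Gpihbp1 and Ltf passed it. The lower B cell, MHC class II and T cell genes numbered 19, 9 and 7 under this block, beside 1.96% of all genes lower. The difference from C57L/J (233 genes) became 758 with array weights, 427 without the muscle arrays and 198 to 624 with 1 array left out. That from C57BL/6J (158 genes) became 435, 391 and 139 to 292, and 302 with the muscle block. The other alternatives kept the counts within 1.5 times. Without the muscle arrays, 1 array was left at 0 Gy and 1 at 12.5 Gy in CBA/J. The spread then came from the CBA/J arrays at 15 Gy and from other strains, so counts from that fit rest on 1 array against 1. Of 2555 pairs of a called gene named here and an alternative, 2179 kept the call and 376 lost it. Data of this size were simulated with 200 of 18194 genes changed and noise drawn independently for each gene. There, 83.5% of genes with a log2 change of 2 were found at the unadjusted and 56% at the adjusted limit. For a change of 1 the shares were 61.5% and 0%. Tissue differences shared by the genes of an array were not simulated, so these shares need not hold for the real arrays. On each array 15.1% to 18.7% of the values lay below an intensity of 32, where folds are least reliable.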

Other observations

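Genes outside the lists, chosen after their values were seen, add to the account. Changes in other strains stand beside some of them, for the metalloproteinases and heat shock genes those of C57L/J only. No gene had an adjusted p under 0.05 of the difference between strains by limma. Il27ra, the receptor of interleukin 27 on lymphocytes, was at 6.78, 7.16 and 7.55 at 0 Gy and 5.004, 4.55 and 5.18 at 12.5 Gy (change -2.25 ± 0.27), against changes of -0.62 in C57L/J and -0.59 in C57BL/6J. The metalloproteinases Mmp12 (8.20, 7.95 and 8.79 and 6.70, 6.95 and 6.39) and Mmp13 (6.34, 6.59 and 6.62 and 4.82, 5.38 and 5.33) were lower in CBA/J by limma, with adjusted p-values of 0.141 and 0.113, and changed by -0.01 and 0.31 in C57L/J. Kmo and Kynu, enzymes of tryptophan breakdown, had changes of -1.83 and -1.11. Ikzf3, the lymphocyte factor Aiolos, had a change of -2.35 ± 0.23.

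Some genes were higher. Mgmt, which removes alkyl groups from guanine in DNA, was at 5.32, 6.06 and 5.89 and 7.41, 7.92 and 7.34 (change 1.80 ± 0.27). Serpina3n, a protease inhibitor of the acute phase, was at 8.40, 8.42 and 8.54 and 10.20, 11.16 and 9.70 (change 1.90 ± 0.38). Zfp365 and Ddit4l, a relative of Ddit4, had changes of 1.61 and 2.60, and Gas6, a ligand of receptors that clear dying cells, one of 0.70. The heat shock genes Hspa1a (8.50, 9.05 and 8.50 and 9.50, 9.69 and 10.40) and Hspa1b (10.20, 10.52 and 9.71 and 11.14, 11.81 and 11.83) are near-identical copies whose signals cannot be told apart with certainty, and changed by 1.18 and 1.45 in CBA/J and -0.23 and -0.07 in C57L/J. Zfp365 and Gas6 lost the unadjusted criterion in 5 of the 6 fits that left out an array, Ddit4l and Hspa1a in 4, Kynu and Hspa1b in 3 and Serpina3n in 2.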
